A study of Mus musculus with 5 samples.

Results

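The heat shock chaperones described here are 10 genes measured by single-cell RNA sequencing of mouse kidney: Hspa1a, Hspa1b, Hsph1, Dnajb1, Hspb1, Hspa8, Hsp90aa1, Hsp90ab1, Hspd1 and Hspe1. They were found by gene symbol, and all 10 were among the 32285 genes of the count matrix. The study followed unilateral ischemia-reperfusion (UIR), in which the left renal pedicle was clamped and the right kidney left intact. It deposited 5 kidney samples, a Sham kidney and UIR kidneys taken at day 1, day 3, day 14 and day 28, with 1 sample in each group. All came from male C57BL/6J mice aged 6 to 8 weeks, each sample from 3 mice, and were digested with collagenases and hyaluronidase at 37°C for 40 minutes before droplet capture. The paper describes merging more single-cell matrices than the 5 samples deposited, and how they relate to these samples is not stated. No knockout or drug was used in these samples, and the Sham mice had the same surgery without the clamp. The counts were deposited as 1 matrix whose barcodes carry a library number from 1 to 5, and nothing in the labels ties a number to a day or to Sham. Values are therefore given by library, no time point is named, and no test was possible between conditions.

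Heat shock proteins are chaperones: they bind proteins that are unfolded, newly made or damaged, and help them to fold or pass them on for degradation. HSP70 proteins work in cycles with J-domain partners such as Dnajb1 and with exchange factors such as Hsph1, while HSP90 proteins finish many kinases and receptors, and Hspd1 with its lid Hspe1 folds proteins inside mitochondria. Heat shock factor 1 induces part of the family through heat shock elements, which are repeats of the unit nGAAn in alternating direction. In kidney these genes are known for their induction after ischemia, and some, Hspa1a above all, are also known to be switched on by warm tissue digestion.

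Hspa1a and Hspa1b lie next to each other on chromosome 17, at chr17:34969190-34972156 and chr17:34956436-34959238 of GRCm38, both on the minus strand and 9951 bases apart. Each is a gene without introns that encodes the same stress-inducible HSP70, and their coding sequences (1923 and 1926 bases) were identical at 98.2% of positions. Of the 476 words of 25 bases in the last 500 bases of the Hspa1a transcript, 0 were found in that of Hspa1b, but reads from the coding part can fit both. The split between the 2 genes is therefore uncertain, and their sum is given as well. Their upstream sequences are shown because both genes were highest in the same class, and that of Hspb1 because its level set classes far apart. Each runs 250 bases up to the start site in the RefSeq promoter table (GRCm38.p6), capitals mark GAANNTTC, and none overlaps an annotated exon.
Hspa1a, chr17:34972157-34972406, minus strand: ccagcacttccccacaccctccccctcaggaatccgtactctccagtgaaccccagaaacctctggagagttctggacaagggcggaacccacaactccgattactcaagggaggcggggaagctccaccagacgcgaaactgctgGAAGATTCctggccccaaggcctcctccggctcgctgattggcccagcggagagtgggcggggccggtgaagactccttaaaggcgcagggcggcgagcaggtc
Hspa1b, chr17:34959239-34959488, minus strand: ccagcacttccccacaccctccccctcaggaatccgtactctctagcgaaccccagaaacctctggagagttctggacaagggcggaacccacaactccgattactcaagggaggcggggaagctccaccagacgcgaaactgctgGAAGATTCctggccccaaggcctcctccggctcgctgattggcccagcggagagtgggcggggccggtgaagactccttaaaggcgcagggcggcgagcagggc
Hspb1, chr5:135887669-135887918, plus strand: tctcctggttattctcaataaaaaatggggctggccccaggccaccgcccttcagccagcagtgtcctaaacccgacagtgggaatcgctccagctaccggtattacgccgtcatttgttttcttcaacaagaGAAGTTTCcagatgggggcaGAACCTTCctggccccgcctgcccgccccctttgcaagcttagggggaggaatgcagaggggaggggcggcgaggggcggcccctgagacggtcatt

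The Hspa1a and Hspa1b stretches printed above were identical at 247 of 250 bases (98.8%). The windows searched for motifs ran from 250 bases before the start to 50 bases after it. The 2-unit motifs searched were GAANNTTC and TTCNNGAA, each of which reads the same on both strands, and 15.1% of the 32851 windows in the table held at least 1. The 3-unit motifs were GAANNTTCNNGAA and TTCNNGAANNTTC, which are each other's reverse complement and contain both shorter ones, and 0.603% of windows held them. The table had 10 windows for 7 of the 10 genes, of which 7 windows held a 2-unit and 4 a 3-unit match. By gene, 6 of 7 held a 2-unit match, against 17.0% of all genes in the table, and 3 of 7 (Hsph1, Hspd1 and Hspe1) a 3-unit match, against 0.662%. These genes do not hold separate matches: the 3-unit stretch of Hspd1 and that of Hspe1 are the same bases read on opposite strands, the match of Hsph1 falls in both of its windows, and the Hspa1a and Hspa1b windows are near copies. Dnajb1 had none in its 2 windows. Hspd1 and Hspe1 lie head to head on chromosome 1, at chr1:55077835-55088243 (minus strand) and chr1:55088132-55091307 (plus strand), and overlap by 112 bases at their 5′ ends. The stretch with 2 overlapping 3-unit matches lies 89 to 72 bases before the RefSeq start of Hspe1 and inside the annotated span of Hspd1. It is shown with the match of Hsph1, 36 to 48 bases after a start of that gene, because these were the 3-unit matches.
Hspe1, chr1:55088059-55088076, plus strand: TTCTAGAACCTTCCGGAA
Hsph1, chr5:149636288-149636300, minus strand: TTCTGGAAAGTTC

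A match is a description of these letters, and no binding was measured. The other members are Hsph1 on chr5:149614287-149636376, Dnajb1 on chr8:83608193-83612653, Hspb1 on chr5:135887919-135889563, Hspa8 on chr9:40800984-40810087, Hsp90aa1 on chr12:110690605-110702728 and Hsp90ab1 on chr17:45567775-45573271, all in GRCm38.

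After cell calling and filters 57726 cells were kept, 8271 to 19059 per library, with a median of 4606 unique molecular identifiers (UMIs, 1 per captured transcript). Marker genes gated 49361 of them (85.5%) into 16 classes: 45436 nephron cells, 3596 immune cells and 329 stromal cells. Proximal tubule-like cells made up 44135. The labels of all 5 samples give goblet cell as the cell type, but Muc2, the mucin of goblet cells, had 21 UMIs in 20 of the 57726 cells. Libraries shared 353 barcode sequences (707 cells), and without those cells all 56 finite ratios that passed the rule below still passed. A gate on Havcr1, Krt20, Vcam1, Cdh6, Krt18 and Krt8, meant for injured tubule, took 416 cells whose leading genes were Sprr2a3, Upk3a and Psca, genes of the urothelium. It is therefore called the Havcr1/Krt20 gate, and its 229 cells without a UMI of a uroplakin or Psca are given apart from the 187 with one. Class levels are CPM, a gene's UMIs per 1000000 UMIs of all cells of the class, with exact 95% Poisson intervals, which cover counting error only.

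**Figure D1:**
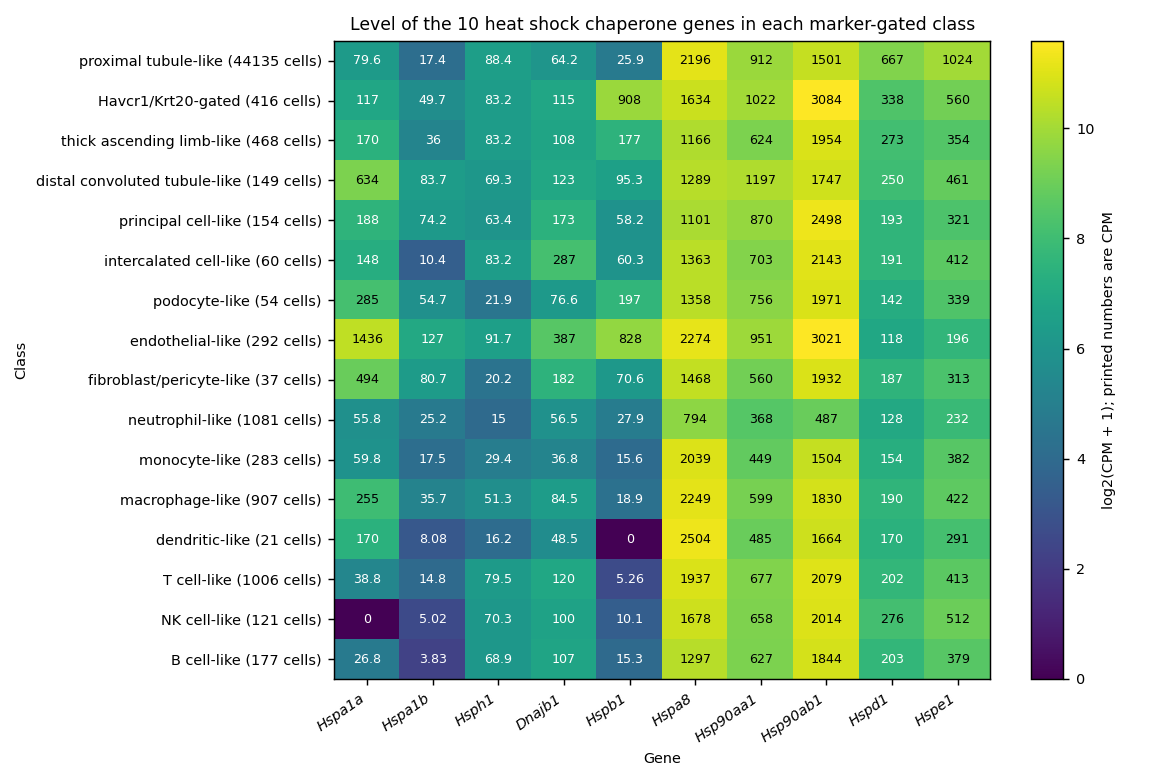
Level of each chaperone gene (columns) in each gated class (rows, with the number of cells) as CPM, with colour on a log2(CPM + 1) scale. Hspa1a was highest in endothelial-like cells at 1436 CPM, Hspd1 and Hspe1 in proximal tubule-like cells at 667 and 1024 CPM, and neutrophil-like cells were low in most columns.

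Summed over the 10 genes, chaperone transcripts took 6577 CPM in proximal tubule-like cells (interval 6567 to 6586, libraries 5393 to 7380). The sum was highest in endothelial-like cells at 9431 CPM (9285 to 9579) and lowest in neutrophil-like cells at 2189 CPM (2114 to 2266). In every class more of the sum came from Hspa8 and the HSP90 genes than from the other members. Each class was compared with proximal tubule-like cells, and a gene passed when its pooled ratio was at least 2-fold and pointed the same way in every library with at least 20 cells of both. Over 13 classes with such a library, 22 of the 130 member-by-class ratios passed upward (16.9%) and 35 downward (26.9%), near the 21.0% and 22.9% over all genes tested in the same classes. Upward the members that passed were Hspa1a, Hspa1b, Dnajb1, Hspb1 and Hsp90ab1, while Hspd1 passed downward in 12 classes and Hspe1 in 11.

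Endothelial-like cells had the most members above the tubule: 5 of 10 passed upward (Hspa1a, Hspa1b, Dnajb1, Hspb1 and Hsp90ab1), against 34.0% of all genes tested. Downward 2 passed (Hspd1 and Hspe1), a share like the 19.6% of genes. Hspa1a, the inducible HSP70, stood at 2118, 1066 and 658 CPM in the endothelial-like cells of libraries 1, 2 and 3, the libraries with at least 20 such cells. In proximal tubule-like cells it stood at 153, 97.9, 40.0, 49.3 and 77.6 CPM in libraries 1 to 5. The groups did not overlap, and library 1 was highest in both. The pooled levels, 1436 CPM (1379 to 1494) and 79.6 CPM (78.5 to 80.7), gave a log2 ratio of 4.17 (4.11 to 4.23). Taken within each library the ratio was lower, at 3.79, 3.445 and 4.04 in libraries 1 to 3.

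Hspa1b, at a lower level, was also highest in endothelial-like cells. It reached 155, 131 and 72.1 CPM in endothelial-like cells of libraries 1 to 3 and 10.2 to 24.1 CPM in proximal tubule-like cells, a log2 ratio of 2.87 (2.66 to 3.06). The 2 genes together stood at 1562 CPM (1503 to 1623) in endothelial-like and 97.0 CPM (95.8 to 98.2) in proximal tubule-like cells. Its share of the 2 genes' UMIs was 17.9% (17.5 to 18.4) in proximal tubule-like cells and 8.11% (7.09 to 9.21) in endothelial-like cells. The share was 6.81% to 10.96% in the 3 endothelial libraries and 12.1% to 24.3% in the 5 tubule libraries, so the ranges did not overlap. It was 29.8% (26.6 to 33.3) under the Havcr1/Krt20 gate and 28.4% (24.0 to 33.0) in principal cell-like cells, but there the libraries ran from 18.6% to 36.9% and from 16.8% to 32.5%.

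Dnajb1, the J-domain partner that hands substrates to HSP70, was at 459, 381 and 199 CPM in the endothelial-like cells of libraries 1 to 3. In proximal tubule-like cells it ran from 38.3 to 97.6 CPM, and the pooled log2 ratio was 2.59 (2.48 to 2.71). Within libraries 1 to 3 the ratio was lower, at 2.23, 2.44 and 2.38. Hsph1, an HSP110 that reloads HSP70 with nucleotide, did not follow its partners. It was at 91.7 CPM (77.9 to 107) in endothelial-like cells and 88.4 CPM (87.3 to 89.5) in proximal tubule-like cells, and the library values overlapped.

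Over pooled cells, distal convoluted tubule-like cells were next for Hspa1a at 634 CPM (576 to 696). Library 3 gave 249.8 CPM and library 5 gave 1071 CPM, and 327 of the 439 UMIs came from library 5. Macrophage-like cells held 238 and 992 CPM in the same libraries, so within libraries these classes were close. Both distal convoluted tubule-like values lay above every tubule value, with a log2 ratio of 2.99 (2.85 to 3.13), which was 1.85 without library 5. Hspa1a, Hspa1b and Hspb1 passed upward there, 3 of 10 members against 18.3% of genes, and Hspd1 and Hspe1 downward against 15.5%. Fibroblast/pericyte-like cells (494 CPM, 37 cells) are given no rank, because 90 of their 98 Hspa1a UMIs came from the 14 cells of library 1. Podocyte-like (285 CPM) and macrophage-like cells (255 CPM) came next, and their intervals overlapped. Principal cell-like (188 CPM), thick ascending limb-like (170 CPM), dendritic-like (169.6 CPM), intercalated cell-like (148 CPM) and Havcr1/Krt20-gated cells (117 CPM) again overlapped in sequence.

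Immune classes split on Hspa1a. Macrophage-like cells held 367, 204, 238, 167 and 992 CPM in libraries 1 to 5, above the tubule value of the same library each time, with a log2 ratio of 1.68 (1.60 to 1.76). Library 5 stood well above the other libraries and rested on 62 UMIs. Hspa1a and Hspa1b passed upward in macrophage-like cells, 2 of 10 against 15.4% of genes, and the ratio of Hspa1b was 1.04, falling to 0.64 without library 3. In libraries 2 and 4 macrophage-like Hspa1b lay below the empty droplets (24.7 against 28.3 and 20.6 against 23.7 CPM). Hspd1 and Hspe1 passed downward there, against 27.4% of genes.

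Lymphocyte-like cells were at the low end. T cell-like cells held 38.8 CPM of Hspa1a (30.8 to 48.2) and B cell-like cells 26.8 CPM from 7 UMIs. NK cell-like cells held 0 UMIs in 121 cells, where 3 UMIs would have made 15.1 CPM, below the 79.6 CPM of proximal tubule-like cells. Dnajb1 was not low in them, at 120.1, 100.5 and 107 CPM in T, NK and B cell-like cells against 64.2 CPM in proximal tubule-like cells, and none of these passed the 2-fold rule. No member passed upward in T cell-like cells (against 21.0% of genes), NK cell-like cells (14.6%), B cell-like cells (15.5%), monocyte-like cells (18.7%) or neutrophil-like cells (16.2%).

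**Figure D2:**
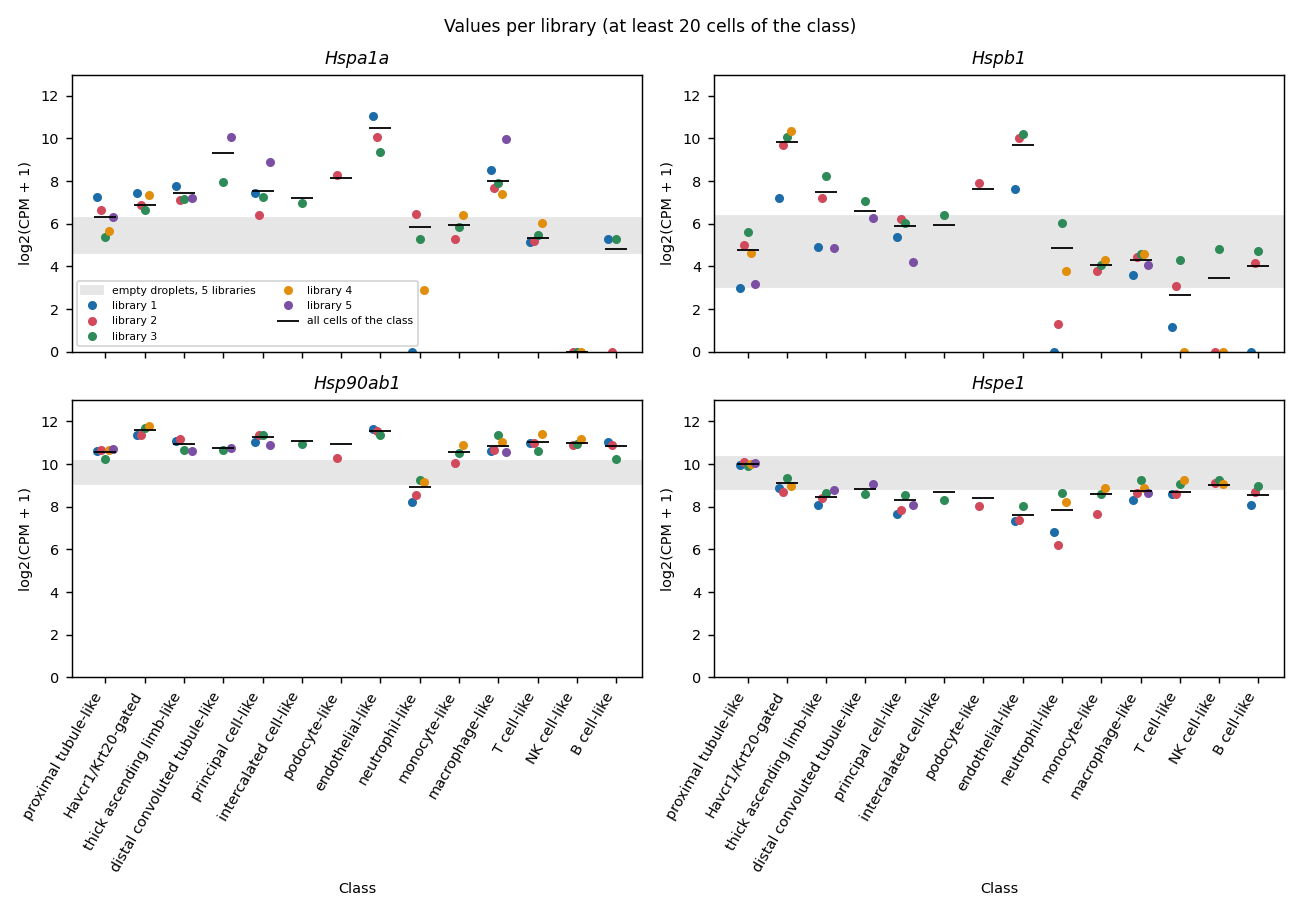
Level of 4 members on a log2(CPM + 1) axis for each class (horizontal axis), with 1 point per library of at least 20 cells, a bar for all cells of the class, and a grey band for the range of the empty droplets of the 5 libraries. All endothelial-like points of Hspa1a and Hspb1 lie above the band, Hspb1 of proximal tubule-like cells lies inside or at the edge of it, and Hspe1 is highest in proximal tubule-like cells.

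Empty droplets, the barcodes at ranks 45000 to 90000 of each library, give the make-up of free RNA. They do not give how much of it a cell holds, and a class can lie below them. In library 2 neutrophil-like cells held 1.49 CPM of Hspb1 against 39.6 CPM in the empty droplets. Their Hspa1a level was 77.2, 75.2, 23.8, 49.1 and 45.8 CPM in libraries 1 to 5. Proximal tubule-like cells lay above it in libraries 1, 2, 3 and 5, and in library 4 the values were 49.3 and 49.1 CPM. The pooled T and B cell-like values lay within the range of the empty droplets, and every endothelial-like library lay above it. Empty droplets lay above proximal tubule-like cells for Hspb1 in all 5 libraries, for Hspa1b in libraries 2 and 4, for Dnajb1 in library 4 (61.4 against 56.9 CPM), for Hspa8 in libraries 4 and 5, and for Hspe1 in libraries 3, 4 and 5.

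To compare classes at equal depth each cell was thinned to 1000 UMIs, leaving out shallower cells. A UMI of Hspa1a was then present in 52.4% of 254 endothelial-like cells (46.0 to 58.6, 74.3% before thinning) and 26.2% of 126 distal convoluted tubule-like cells (18.8 to 34.8). Macrophage-like cells followed at 21.8% of 812 (19.0 to 24.8). It was present in 5.24% of 39843 proximal tubule-like cells (5.02 to 5.46), 2.48% of 926 T cell-like cells (1.58 to 3.70) and 0 of 108 NK cell-like cells, for which the exact interval ended at 3.36%. Before thinning the median depth was 1528 UMIs in NK cell-like, 1696 in T cell-like, 5327 in proximal tubule-like and 3325 in endothelial-like cells. The pooled T cell-like level of Hspa1a lay within the range of the empty droplets, but its libraries lay on both sides of them. Libraries 1 and 2 held 33.9 and 35.8 CPM, below their empty droplets. Libraries 3 and 4 held 42.95 and 64.1 CPM, above theirs, but on only 7 and 11 UMIs. The T cell-like share is therefore not taken as a background. Shares left out 4292 proximal tubule-like, 38 endothelial-like, 23 distal convoluted tubule-like, 95 macrophage-like, 80 T cell-like and 13 NK cell-like cells.

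**Figure D3:**
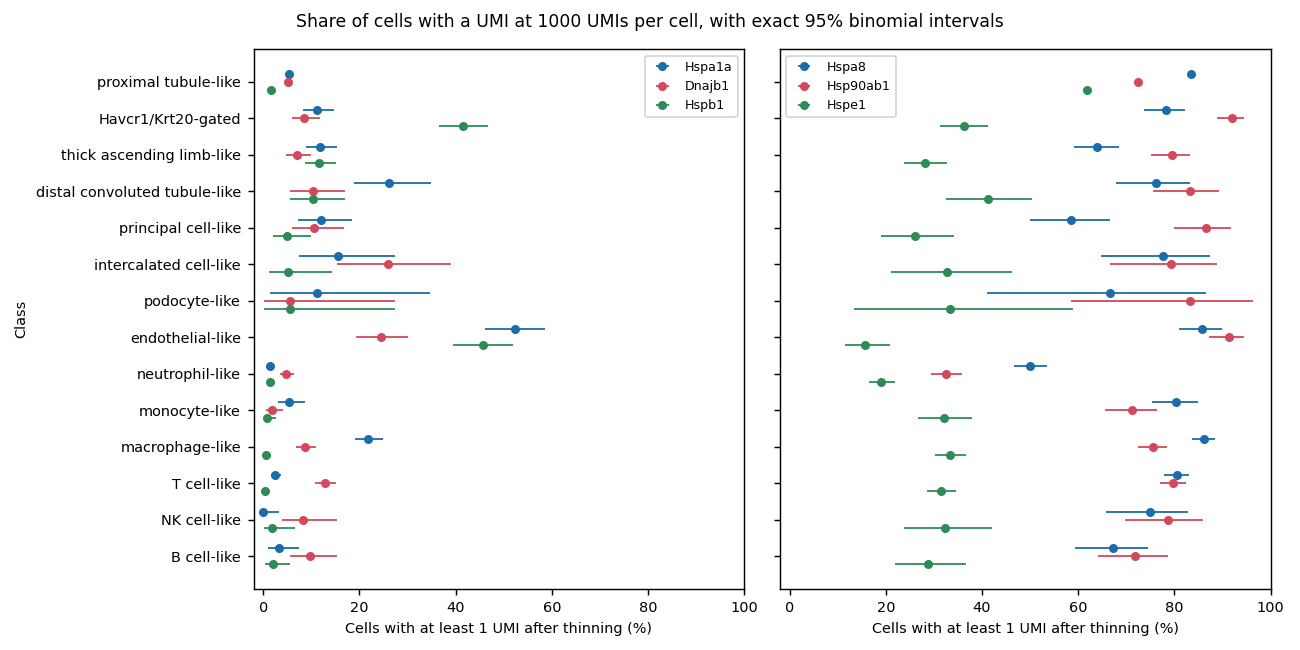
Percent of cells (horizontal axes) with at least 1 UMI of a member after thinning every cell to 1000 UMIs, by class, with exact 95% binomial intervals; the left panel has Hspa1a, Dnajb1 and Hspb1 and the right panel Hspa8, Hsp90ab1 and Hspe1. Hspa1a reached 52.4% in endothelial-like cells and 0% in NK cell-like cells, while Hspa8 was present in at least 50.1% of the cells of every class drawn.

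Transcripts of the HSP70 pair were uneven between cells of a class. In proximal tubule-like cells 7945 of 44135 cells held a UMI of either gene, the tenth of cells with the most UMIs held 86.4% of them, and 1 cell held 66. In endothelial-like cells 227 of 292 held one, the median cell had 3 and the highest had 122. A share of 42.5% of endothelial-like cells had at least 5 UMIs of the pair, against 3.47% of proximal tubule-like and 11.2% of macrophage-like cells.

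Within proximal tubule-like cells, 3 of the other 9 members were at least 2-fold higher where Hspa1a was present. Cells with an Hspa1a UMI after thinning (2087) were set against those without (37756), over the 2816 genes with at least 50 CPM in either group. Hspb1 (34.98 and 21.32 CPM) was thus not among the 2816. Of these genes 0.284% were at least 2-fold higher, 8 in all. The members among the 8 were Hspa1b (97.8 against 12.7 CPM, 7.71-fold), Dnajb1 (142 against 52.2 CPM, 2.73-fold) and Hsp90aa1 (1650 against 818 CPM, 2.02-fold). The other 5, named after their values were seen, were Ddit4, Plk2, Serpinh1, Gm42047 and Stx16, of which Serpinh1 is the collagen chaperone HSP47. Hspa1b was higher in all 5 libraries, with log2 ratios of 3.77, 3.09, 2.14, 1.63 and 2.73 in libraries 1 to 5. Dnajb1 and Hsp90aa1 were also higher in all 5, from 0.34 to 1.66 and from 0.35 to 1.44, with the lower values in libraries 3 and 4.

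Hsph1 was 1.74-fold higher in those cells, with library values from 0.07 to 1.42 on the log2 scale, and Hspb1 was 1.64-fold higher but lower in library 4 (log2 ratio -0.45). Hspa8 (1.28-fold), Hsp90ab1 (1.31-fold), Hspd1 (1.15-fold) and Hspe1 (1.11-fold) differed less. Fos, Jun and Egr1, immediate early genes that respond to stress and to digestion, were 1.35-fold, 1.48-fold and 1.71-fold higher in the same cells, and their part in the result was not tested. Counts per cell in these sums are sparse, so the ratios describe groups of cells and not single cells. In macrophage-like cells (177 with, 635 without) Hspa1b was 15.6-fold, on 39 against 9 UMIs, and Dnajb1 2.81-fold higher, against 5.42% of genes at 2-fold. Hsph1 and Hspb1 lay below 50 CPM in both groups there and were not among those genes. Jun was 2.40-fold and Egr1 2.70-fold higher. By library Egr1 was lower in libraries 3 and 5 (log2 ratios -0.30 and -0.37) and Jun in library 5 (-0.15). In endothelial-like cells (133 with, 121 without) Hspa1b was 3.07-fold and Hsph1 8.64-fold higher, against 9.47% of genes. They rested on 27 against 8 and on 19 against 2 UMIs, and Hspa1b was not higher in libraries 4 and 5. In thick ascending limb-like cells (49 with, 364 without) Hsph1 alone among members passed 2-fold (2.86-fold), against 18.8% of genes. Hsp90aa1 (0.75-fold), Hspd1 (0.55-fold) and Hspe1 (0.87-fold) were lower there. In distal convoluted tubule-like cells (33 with, 93 without) Hspa1b, Hsph1, Dnajb1, Hsp90aa1 and Hsp90ab1 were at least 2-fold higher, against 29.7% of genes. Jun and Egr1 were 3.39-fold and 3.12-fold higher. Hspa1b rested there on 7 against 2 UMIs and Hsph1 on 5 against 5, with a log2 interval of -0.62 to 3.61. Dnajb1 was lower in library 1 (-0.74) and Hsp90aa1 in library 3 (-1.75). Before thinning 327 of the 439 Hspa1a UMIs of this class came from library 5, so these sums mix library with Hspa1a status. Few UMIs reach 50 CPM in such small groups. In the 49 thick ascending limb-like cells with an Hspa1a UMI, 4 UMIs of Hspa1b made 81.63 CPM. In the 33 such distal convoluted tubule-like cells, 5 UMIs of Hsph1 made 151.5 CPM. Counting error therefore adds to the 18.8% and 29.7% of genes, by an amount that was not tested.

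**Figure D4:**
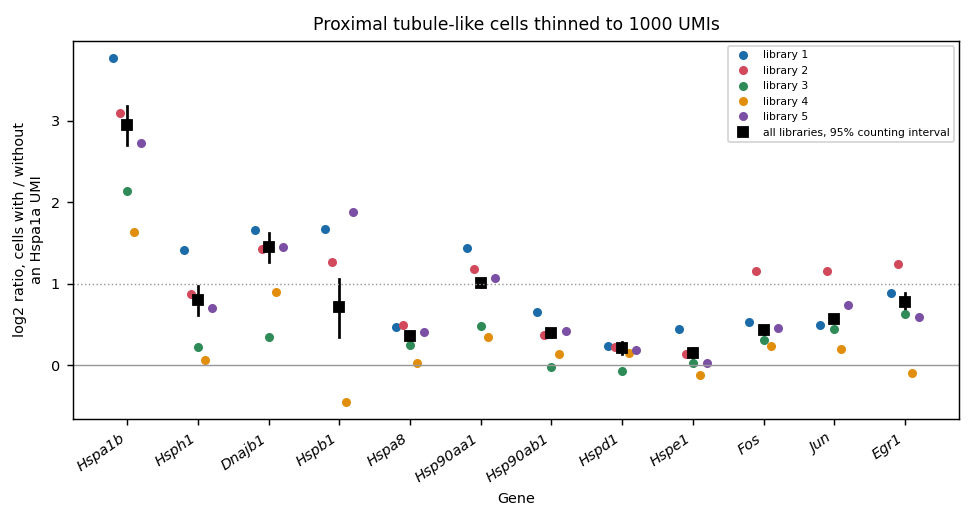
Log2 ratio (vertical axis) of each other member and of Fos, Jun and Egr1 in proximal tubule-like cells with an Hspa1a UMI over those without, all thinned to 1000 UMIs; coloured points are libraries, squares all libraries with 95% counting intervals, and the dotted line marks 2-fold. Hspa1b, Dnajb1 and Hsp90aa1 lie above 2-fold over all libraries, and Hspd1 and Hspe1 lie near 0.

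Hspb1, the small heat shock protein HSP27 that binds unfolding proteins and actin, differed widely between classes. The Havcr1/Krt20 gate held 145, 835, 1061 and 1286 CPM in libraries 1 to 4, and endothelial-like cells held 199, 1050 and 1197 CPM in libraries 1 to 3. Library 1 was lowest in both classes. Proximal tubule-like cells held 6.95, 31.2, 47.8, 23.6 and 8.16 CPM in libraries 1 to 5, and the empty droplets of the same libraries held 7.10, 39.6, 80.2, 35.7 and 10.2 CPM. Empty droplets were thus above the tubule cells in each library, and the part of free RNA in tubule Hspb1 was not tested.

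Proximal tubule-like cells, whose own level lay below the empty droplets, were the reference for the ratios. The log2 ratio of UMI levels was 5.13 (5.07 to 5.19) under the Havcr1/Krt20 gate and 5.00 (4.91 to 5.08) in endothelial-like cells. The 229 gated cells without a uroplakin or Psca UMI held 1174 CPM of Hspb1 (1129 to 1219) and 822 CPM of Havcr1, the kidney injury molecule. By library they held 178, 848 and 1915 CPM in libraries 1 to 3. The 187 cells with such a UMI held 629 CPM of Hspb1 (596 to 664), 69.2 CPM of Havcr1 and 3129 CPM of Upk3a, and 147 of them came from library 3. Hspb1 was thus high in both kinds of cell under this gate.

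Thick ascending limb-like cells held 29.5, 147, 303 and 28.5 CPM of Hspb1 in libraries 1, 2, 3 and 5, with the same libraries high and low as in the tubule and in the empty droplets. Their log2 ratio was 2.77 (2.64 to 2.91), or 1.90 when the median of the libraries was taken. Podocyte-like cells held 197 CPM from 18 UMIs, distal convoluted tubule-like cells 95.3 CPM, intercalated cell-like cells 60.3 CPM and principal cell-like cells 58.2 CPM. Hspb1 passed upward in each of these nephron classes, but the ratio in principal cell-like cells, 1.17, fell to 0.24 when only cells with at most 10% mitochondrial UMIs were kept. In library 3, which gave 55 of their 91 UMIs, principal cell-like cells (64.2 CPM) lay below the empty droplets (80.2 CPM). Library 3 also gave 25 of the 29 intercalated cell-like UMIs, at 84.8 CPM, near the same empty droplets. The intercalated cell-like ratio, 1.22, was 0.27 without that library.

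Immune cells had little Hspb1. T cell-like cells held 11 UMIs in 1006 cells, or 5.26 CPM (2.63 to 9.42), and passed downward with a log2 ratio of -2.30. After thinning, 0.432% of T cell-like and 0.616% of macrophage-like cells held a UMI, against 41.5% (36.5 to 46.7) of Havcr1/Krt20-gated and 45.7% (39.4 to 52.0) of endothelial-like cells. Proximal tubule-like cells were at 1.64% (1.52 to 1.77).

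Hspa8, the constitutive HSP70 that is made in all cells and uncoats clathrin vesicles, was the most even member: its highest class was 3.15 times its lowest. Proximal tubule-like cells held 2354, 1818, 1729, 3034 and 2340 CPM in libraries 1 to 5 and macrophage-like cells 2510, 1857, 1865, 3045 and 2079 CPM. These ranges overlapped almost fully, and library 4 was highest in both. Library 4 was also highest for Hspa8 in T cell-like (3035 CPM) and monocyte-like cells (3678 CPM), and in the empty droplets (3293 CPM). Principal cell-like (1101 CPM) and thick ascending limb-like cells (1166 CPM) were low among nephron classes, though neither passed the 2-fold rule.

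Neutrophil-like cells were the exception for the constitutive chaperones. Hspa8 held 933, 709.7, 789 and 1120 CPM in libraries 1 to 4, each below the tubule value of its library, with a log2 ratio of -1.47 (-1.55 to -1.39). Hsp90ab1, the constitutive HSP90, held 299, 369, 616 and 576 CPM against 1217 to 1669 CPM in proximal tubule-like cells, a log2 ratio of -1.62 (-1.73 to -1.52). Hsp90aa1, the inducible HSP90, had a log2 ratio of -1.31 (-1.44 to -1.19) and Hsph1 one of -2.56 (-3.24 to -1.96) on 22 UMIs. With Hspd1 and Hspe1, 6 of 10 members passed downward, against 39.7% of all genes tested in neutrophil-like cells. The median log2 ratio of the 10 members was -1.39, against -0.72 over all genes tested. Neutrophil-like cells were shallow, with a median of 1285 UMIs and 602 genes, and after thinning Hsp90ab1 was present in 32.6% of them (29.4 to 35.9) against 72.4% of proximal tubule-like cells (71.9 to 72.8).

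Hsp90ab1 was highest under the Havcr1/Krt20 gate and in endothelial-like cells. The gate held 2608, 2642, 3326 and 3546 CPM in libraries 1 to 4 and endothelial-like cells 3168, 3000 and 2619 CPM in libraries 1 to 3, all above the tubule maximum of 1669 CPM. The log2 ratios, 1.04 and 1.01, lay at the edge of the 2-fold rule. They were 0.93 and 0.88 with mitochondrial UMIs out of the totals, 0.80 and 0.96 without library 3, and for endothelial-like cells 0.97 without library 1. The gated cells without a uroplakin or Psca UMI held 2725 CPM, a log2 ratio of 0.86, and those with one 3460 CPM. Under the gate 3 of 10 members passed upward (Hspa1b, Hspb1 and Hsp90ab1), against 21.6% of genes, and none downward, against 13.4%. Hspa1b also no longer passed without the uroplakin cells, where its ratio was 1.18. In library 2 the gate held 26.5 CPM of Hspa1b, below the empty droplets of that library (28.3 CPM).

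Hsp90aa1 shifted against Hsp90ab1 between classes. Its share of the UMIs of the pair was 37.8% (37.7 to 37.9) in proximal tubule-like cells, with libraries from 34.0% to 42.0%. It was 43.0% (40.2 to 45.8) in neutrophil-like and 40.7% (38.5 to 42.8) in distal convoluted tubule-like cells. In the other 13 classes it lay between 22.5% and 27.7%, for example 24.2% (23.2 to 25.2) in thick ascending limb-like cells with libraries from 21.5% to 27.0%. The tubule and limb ranges did not overlap, but the 1 podocyte-like library (37.4%) lay inside the tubule range, and the highest principal cell-like, macrophage-like and monocyte-like libraries (33.9%, 33.8% and 33.6%) came close to it. Distal convoluted tubule-like cells also held the highest Hsp90aa1 level at 1197 CPM, from 904 CPM in library 3 and 1536 CPM in library 5.

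Hspd1 and Hspe1, the mitochondrial HSP60 and HSP10, differed from Hspa1a in their order of classes. Both were highest in proximal tubule-like cells, a cell type known to be rich in mitochondria. The median percent of mitochondrial UMIs was 11.14 in these cells. It was 14.25 in distal convoluted tubule-like, 11.97 in thick ascending limb-like and 11.48 in intercalated cell-like cells, where both genes passed downward. It was lower in every other class. The part of mitochondrial content in these levels was not tested. In proximal tubule-like cells Hspd1 held 702, 725, 545.5, 647 and 771 CPM in libraries 1 to 5. Hspe1 held 1003, 1114, 956, 1020 and 1051 CPM in the same cells. The next class for Hspd1 was the Havcr1/Krt20 gate at 338 CPM (321 to 355), whose highest library, 438 CPM, lay below the lowest tubule library. The gated cells without a uroplakin or Psca UMI held 379.5, 258 and 552 CPM in libraries 1 to 3, the last just above the tubule value of library 3, and those with one held 270 CPM over all libraries. Endothelial-like cells were at the low end with neutrophil-like cells, whose intervals overlapped theirs for both genes. They held 107, 102.5 and 138 CPM of Hspd1 and 161, 164 and 259.6 CPM of Hspe1 in libraries 1 to 3, and log2 ratios of -2.50 (-2.70 to -2.30) and -2.38 (-2.54 to -2.23).

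Hspd1 passed downward in 12 of 13 classes and Hspe1 in 11 of 13. Hspd1 did not pass under the Havcr1/Krt20 gate, and Hspe1 did not pass there or in NK cell-like cells. In thick ascending limb-like cells, where 2 of 10 members passed upward (Hspa1a and Hspb1, against 18.5% of genes) and these 2 downward (against 13.8%), the log2 ratios were -1.29 for Hspd1 and -1.53 for Hspe1. Hspa1a there rested on a ratio of 1.10 that was 0.98 without library 3 and 0.93 without library 4. In principal cell-like cells the mitochondrial ratios were -1.79 and -1.67, 2 of 10 members against 14.0% of genes, while Hspa1b, Dnajb1 and Hspb1 passed upward against 23.9%. Principal cell-like Hspa1b in library 2 was 26.3 CPM from 5 UMIs, below the empty droplets (28.3 CPM), with a log2 ratio of 0.13. In neutrophil-like cells the ratios were -2.38 for Hspd1 and -2.15 for Hspe1, but they were -3.29 and -3.18 without library 3 and that of Hspe1 was -1.46 without library 2.

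Among the remaining classes, T cell-like cells had ratios of -1.72 and -1.31, and 3 of 10 members passed downward against 29.8% of genes. Monocyte-like cells had 4 (Hsph1, Hsp90aa1, Hspd1 and Hspe1) against 30.0%, with Hsp90aa1 at -1.02 and at -0.95, -0.79 and -0.997 without libraries 2, 3 and 5, and Hspd1 at -2.11 and at -2.74 without library 3. B cell-like cells had 4 (Hspa1a, Hspa1b, Hspd1 and Hspe1) against 30.3%, where Hspa1b rested on 1 UMI and Hspd1 moved from -1.72 to -2.51 without library 3. NK cell-like cells had 3 (Hspa1a, Hspb1 and Hspd1) against 27.6%, where Hspb1 rested on 2 UMIs and did not pass without library 2 or without library 4. Intercalated cell-like and podocyte-like cells had 1 library of at least 20 cells each. In intercalated cell-like cells Dnajb1 (287 CPM) and Hspb1 passed upward against 22.5% of genes and Hspd1 and Hspe1 downward against 17.9%. In podocyte-like cells Hspa1a and Hspb1 passed upward against 30.0%, and Hsph1 (2 UMIs), Hspd1 and Hspe1 downward against 20.8%. The log2 ratio of Hsph1, -2.01, was -0.33 with no limit on the second class and no longer passed. Only 18 of the 54 podocyte-like cells reached 1000 UMIs, and thinned to that depth their log2 ratio of Hspa1a fell from 1.84 to 0.52, no longer 2-fold.

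RNA of the proximal tubule was present in all classes. The summed level of 4 tubule genes kept out of the gates (Miox, Fbp1, Ass1 and Pck1) was 13.7% of its proximal tubule-like value in neutrophil-like cells and 3.08% to 11.4% elsewhere. Its part in the member levels of the other classes was not tested. Hspd1 made up 39.5% (39.3 to 39.6) of the pair's UMIs in proximal tubule-like cells, 31.1% (29.4 to 32.8) in macrophage-like cells and 32.9% (30.4 to 35.6) in T cell-like cells. In thick ascending limb-like cells it was 43.6% (41.2 to 46.0), above the tubule in libraries 1, 2 and 3 and below it in library 5 (41.1% against 42.3%). It was 37.6% in principal cell-like, endothelial-like and Havcr1/Krt20-gated cells, where the libraries overlapped those of the tubule (36.3% to 42.3%).

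Between libraries of proximal tubule-like cells the highest library was at least 2-fold above the lowest for 4 of 10 members, Hspa1a (3.83-fold), Hspa1b (2.36-fold), Dnajb1 (97.6, 70.3, 38.3, 56.9 and 71.1 CPM in libraries 1 to 5) and Hspb1 (6.88-fold), against 17.2% of the 7450 genes tested. Hspb1 lay below the empty droplets in each of these libraries, and Hspa1b did so in libraries 2 and 4, the latter its lowest library (10.2 against 23.7 CPM). Without libraries 1, 3 or 4 in turn 3 passed, against 10.2%, 9.33% and 16.1% of genes. Hspa1a and Dnajb1 were highest in library 1 and lowest in library 3, Hspb1 was highest in library 3 and lowest in library 1, and Hspa1b was highest in library 2. Hsph1 ran from 59.0 CPM in library 3 to 115 CPM in library 5, below the 2-fold limit. Hspe1 was the steadiest, with 956 to 1114 CPM. The summed level of 15 immediate early genes in the same cells was 5499, 8923, 8792, 7921 and 6750 CPM in libraries 1 to 5, lowest in the library where Hspa1a was highest.

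**Figure D5:**
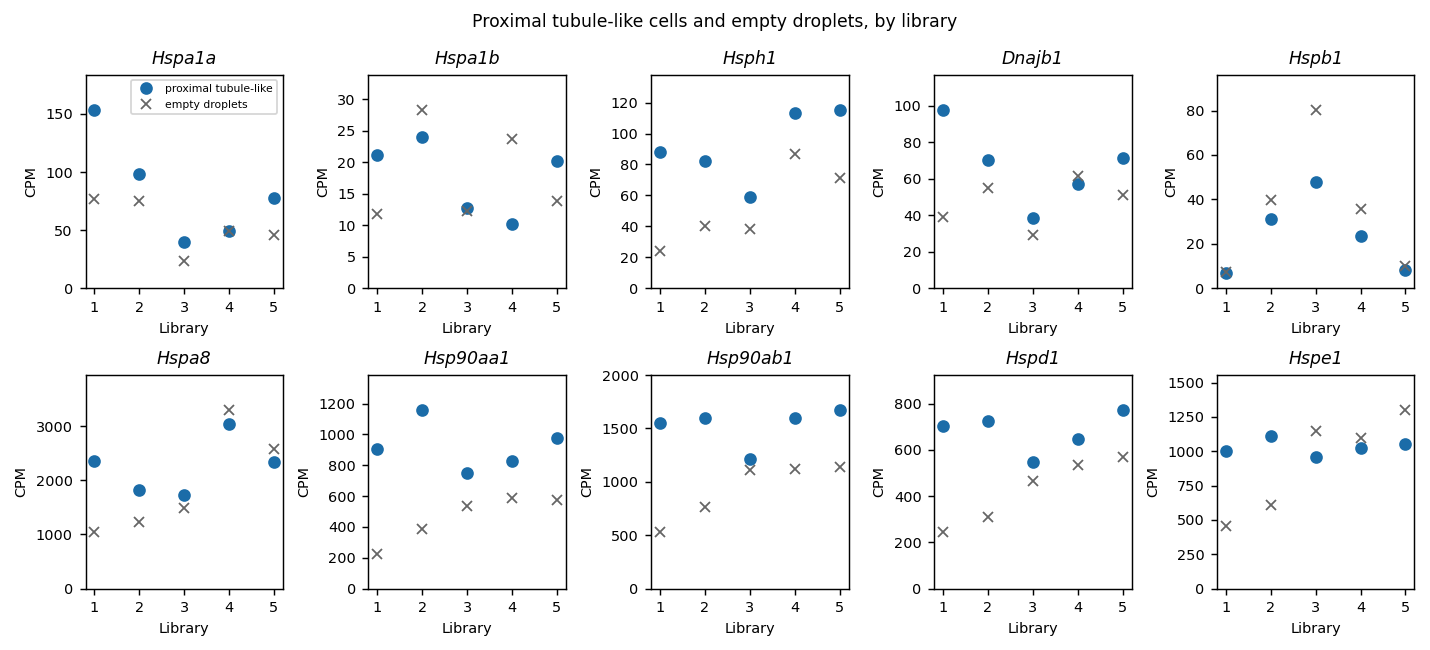
CPM (vertical axes, from 0) of each member in proximal tubule-like cells (filled circles) and in empty droplets (crosses) of libraries 1 to 5. Hspa1a runs from 40.0 to 153 CPM with its highest value in library 1, Hspb1 follows the empty droplets, and Hspd1 lies above them in each library.

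In the smaller classes few values set the range, and many genes passed the same 2-fold limit between libraries. Among nephron classes 4 members passed under the Havcr1/Krt20 gate against 49.2% of genes, 3 in thick ascending limb-like cells against 51.0%, 2 in distal convoluted tubule-like cells against 34.9% and 5 in principal cell-like cells against 63.5%. Of the immune classes, neutrophil-like cells had 8 against 77.3%, monocyte-like cells 6 against 61.8% and macrophage-like cells 5 against 74.7%. T cell-like cells had 3 of 9 tested against 63.6%, NK cell-like cells 3 of 8 against 78.3% and B cell-like cells 5 of 9 against 75.0%. Endothelial-like cells had 6 against 39.3%. Hspa1a in endothelial-like cells differed 3.22-fold over its 3 libraries and in macrophage-like cells 5.95-fold over 5. The libraries are not tied to conditions, so injury, time and library cannot be told apart.

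Of 88 further chaperone, cochaperone and heat shock genes, chosen as a list by function, 74 were tested in each of the first 4 classes described next. In neutrophil-like cells 0 passed upward and 25 (33.8%) downward, against 16.2% and 39.7% of all genes. The median log2 ratio of the list was -0.81, against -0.72 over all genes. Chordc1, an HSP90 cochaperone (10.9 against 75.7 CPM, log2 ratio -2.80), Dnaja3, a mitochondrial J-domain protein (-2.49), and Clpb, a mitochondrial disaggregase (-2.27), were the lowest. In macrophage-like cells 2 passed upward, Tomm34 (1.29) and Dnajb14 (1.06), and 13 (17.6%) downward, led by Dnajb4 (17.0 against 103 CPM, -2.59), Bag2 (-2.19) and Dnaja3 (-1.90).

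T cell-like cells had 9 upward (12.2%), among them Tomm34 (62.7 against 12.7 CPM, 2.31) and Dnajc8 (1.59), and 19 downward (25.7%). The lowest were Serpinh1 (1.91 against 47.7 CPM, -4.64), Hmox1, the heme oxygenase (-4.05), and Cryab, a small heat shock protein (-2.79). In thick ascending limb-like cells 5 passed upward and 5 downward (6.76% each). Bag4, an HSP70 cochaperone (131 against 14.9 CPM, 3.14), Serpinh1 (149 against 47.7 CPM) and Bag1 (1.39) led upward, and Hmox1 (-2.46), Dnaja1 (261 against 739.7 CPM, -1.50) and Dnajc19 (-1.25) downward. In endothelial-like cells 17 of 80 tested passed upward (21.2%) and 11 downward (13.8%), against 34.0% and 19.6%. In each of these 5 classes the share of the list that passed was below that of all genes in both directions.

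Immediate early genes, which respond to stress within minutes, were high in the class where Hspa1a was highest, but highest in podocyte-like cells (27850 CPM), where Hspa1a was at 285 CPM. Their summed level was 26080 CPM in endothelial-like cells (24980 to 25910 over the 3 libraries with 20 cells) and 7720 CPM in proximal tubule-like cells. It was 14170 CPM in neutrophil-like cells, where Hspa1a was at 55.8 CPM. Fos stood at 4980 CPM in endothelial-like, 1975 CPM in macrophage-like and 226 CPM in T cell-like cells, Jun at 3069 CPM in endothelial-like cells and Egr1 at 2846 CPM. Over 46 class-by-library sums the genes whose log2(CPM + 10) was most like that of Hspa1a plus Hspa1b were Fos (Pearson r of 0.77), F11r (0.75), Egr1 (0.75), Cd81 (0.74) and Leprot (0.73), among 2867 genes. Dnajb1 had an r of 0.57, Hspb1 0.52, Hsp90aa1 0.47, Hsp90ab1 0.38, Hspa8 0.17, Hspd1 0.11, Hsph1 0.06 and Hspe1 -0.16. For Hspa8 the most like were Manf (0.72), Hspa5 (0.68), Cct8 (0.65), Ddost (0.64) and Npm3 (0.63). The 46 points share libraries, droplets and free RNA, and no test was made on them. The part of tissue digestion in these levels was not tested.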

How the data were processed

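Single cells of 5 mouse kidney samples (10x 3′ chemistry) were read from 1 matrix of raw counts, deposited by the authors. The submitters' processing notes name Cell Ranger 6.0 and mm10. All 5 libraries were used as 1 pooled sample, so no test was made. No per-sample columns were left out.

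Cells were called by a UMI limit (10% of a high percentile per library) and a test against the free RNA profile (at least 500 UMIs, false discovery rate 0.01), giving 70417 barcodes. Those with under 200 genes or over 25% mitochondrial UMIs were left out. Empty droplets were barcodes at ranks 45000 to 90000. Gates needed at least 2 markers, a score of at least 0.25, and a second class at no more than 0.5 of the first. Doublets were kept, and Scrublet scores were used in an alternative. Library totals ranged from 82426945 to 139382799 UMIs, and kept cells held 51101399 to 94901750.

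CPM were computed from summed UMIs, and the 2-fold rule was applied to genes of at least 10 CPM in either class. The shares of genes for cells with and without an Hspa1a UMI were taken over genes of at least 50 CPM in either group. Poisson and binomial intervals are exact and cover counting error only. The gene lists, markers and members were chosen with earlier results of these data known. Named genes were the members, up to 3 listed genes per direction in 4 comparisons (1 of them is not reported here), Fos, Jun and Egr1, and the 5 genes most like Hspa1a plus Hspa1b or Hspa8. Of the alternatives, 18 were planned and 2 added after seeing the data. Calling and the 2-fold rule were tested on simulated data. Tools were Python 3.11.15, numpy 2.4.6, scipy 1.17.1, pandas 2.3.3 and scanpy 1.11.5.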

Additional observations from a re-analysis of the deposited data

How the results depend on the processing

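Over 18 other settings chosen at the start and 2 added after seeing the data, the members past 2-fold above proximal tubule-like cells, 22 as reported, ranged from 16 (every cell thinned to 1000 UMIs) to 27 (no limit on the second class). Those below, 35, ranged from 32 to 40. The reported shares, 16.9% and 26.9%, stand beside 21.0% and 22.9% of all genes. These are shares of the main setting, and shares of all genes under the alternatives are not given for these counts. Leaving out each library in turn gave 17 to 23 above and 34 to 38 below. Without library 2 podocyte-like cells, and without library 3 intercalated cell-like cells, fell out of these counts. Between libraries of proximal tubule-like cells 4 members passed, against 17.2% of genes. Without 1 library 3 to 4 passed, against 9.33% to 16.7% of genes. With at most 10% mitochondrial UMIs 6 passed (19.3% of genes). Without the highest Scrublet scores, or with mitochondrial genes out of the totals, 5 passed (17.2% of genes in each). With a minimum of 50 CPM, under which Hspa1b and Hspb1 were no longer tested, 2 passed (18.6% of genes). None of the 56 finite ratios that passed changed direction under an alternative, but not all still passed. Of those with a finite ratio, 40 of 55 passed when every cell was thinned. With at most 10% mitochondrial UMIs 46 of 56 passed, and without library 3 46 of 55. Hspa1a in NK cell-like cells, at 0 UMIs, has no finite ratio and was not followed. Podocyte-like calls rested on library 2 and intercalated cell-like calls on library 3, since no library of 20 cells was left without them. Hspa1a in B cell-like cells, from 7 UMIs, no longer passed under 6 alternatives. Shallow classes limit what can be seen: podocyte-like cells had a median of 789 UMIs and neutrophil-like cells 1285. Between conditions no paired analysis was possible, because the labels give no replicate numbers that tie libraries to each other. Classes were compared within libraries by the direction and size of the ratio, and no result came from a test.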

Other observations

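The 8365 kept cells that no gate took, with a median of 1527 UMIs, held 178 CPM of Hspa1a (173 to 183), 271 CPM of Hspb1 (265 to 277) and 314 CPM of Hspd1 (308 to 320). Their Hspa1a lay above that of proximal tubule-like cells in all 5 libraries, from 98.8 CPM in library 3 to 390.2 CPM in library 1, and their Hspb1 ran from 45.6 CPM in library 1 to 402 CPM in library 3.

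Barcodes that the proximal tubule gate took but that had over 25% mitochondrial UMIs (9305) were set against those within the limit (44114), per UMI outside the mitochondrial genes. Hspa1a was lower in them, at 39.1 against 90.8 CPM, a log2 ratio of -1.22 (-1.31 to -1.13), and lower in each of the 5 libraries. Hspb1 (-1.72), Dnajb1 (-0.55) and Hsp90ab1 (-0.24) were also lower in each library. Hsp90aa1 was lower over all libraries (-0.41), with hardly any difference in library 4. Hspa8 differed little, at 2519 against 2505 CPM, and its libraries pointed both ways.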
